A study of Mus musculus with 8 samples.

Results

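The transcription factors that set up and maintain the B lineage were followed in hematopoietic cells without the long Dido3 isoform. The 10 genes, Ebf1, Pax5, Bach2, Lef1, Sox4, Irf4, Irf8, Spib, Pou2af1 and Bcl11a, were taken by name from 26001 genes in the pre-B tables, and all 10 were among the 11848 genes tested there. Their level in sorted pre-B cells was measured by RNA-seq, and the open chromatin assigned to them in LSK cells, the lineage-negative Sca-1+ c-Kit+ bone marrow population that holds stem cells and early progenitors, was measured by Omni-ATAC-seq. Both assays compared Dido1ΔE16 mice with WT littermates on the C57BL/6 background, with 2 libraries per genotype in each assay. Dido1ΔE16 cells (dE16 below) came from mice with one floxed and one deleted allele of Dido1 exon 16, the R26R-EYFP reporter and iCre under the Vav1 promoter, which is active throughout blood cells. The WT mice carried the same Cre and reporter and one floxed allele beside an intact one, so Cre was present in both groups and recombination leaves WT cells with an intact allele and a deleted one. The methods of the study give an age of 6 to 10 weeks and matching for sex and age. A figure legend of the study describes the ATAC-seq and RNA-seq tracks as coming from male mice whose ages differed. The age behind each library is not given in the sources used here. Pre-B cells were sorted with a gate that included B220+ and IgM- from pools of 2 to 3 mice, and what each LSK library was made from is not given in the sources used here. With 2 libraries per genotype, every test measures the spread between these libraries only.

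B cells arise from progenitors in which E2A and EBF1 open B-cell genes and then switch on PAX5, the factor that commits cells to the lineage. BACH2, SOX4 and LEF1 act at the pro-B and pre-B stages, in survival, in the checkpoint of the pre-B receptor and in proliferation. IRF4 and IRF8 promote the passage from large cycling pre-B cells to small pre-B cells that rearrange light chain genes, while the ETS factor Spi-B, the coactivator OBF-1 (Pou2af1) and BCL11A support B-cell gene expression from progenitors onwards.

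The deletion was visible in the RNA of the sorted cells. In the longest Dido1 transcript, exon 16 (chr2:180657963-180662583, GRCm38) had a read coverage of 15.3 and 10.2 in the WT libraries and of 0.192 and 0.039 in the dE16 libraries, where the median coverage of the other exons was 20.2 and 18.5. All 8 genes of the pre-B identity list, led by Ighm and Cd79b, were detected in all 4 libraries. The pre-B libraries differed in other cell types as well. The summed TPM of 8 neutrophil genes was 222 and 2033 in WT and 974 and 8482 in dE16 cells, with S100a9 and S100a8 the most abundant. The summed TPM of 6 erythroid genes was 247 and 744 in WT and 558 and 7124 in dE16 cells, led by Hba-a2 and Slc4a1, with Car1 at 0. The 5 cycling genes, led by Top2a and Mki67, summed to 1072 and 114 in WT and 382 and 531 in dE16 cells. dE16 library 2 was thus the highest for blood cells outside the B lineage, and WT library 1 the highest for cycling genes. The 7 mature B-cell genes, led by Cd74 and H2-Aa, summed to 4278 and 4108 in WT and 4994 and 5920 in dE16 cells. Of these, 2 were higher and 3 lower in both dE16 libraries, against 42.7% of all tested genes without overlap. Ighg2b, a switched isotype gene, was at 4.83 and 0 TPM in WT against 66.7 and 47.1 TPM in dE16 cells. The study attributes it to co-purified memory B cells. Sdc1, a plasma cell gene, was lower in both dE16 libraries. The part of these cells was not tested. Over all 11848 genes, 3 (0.0253%) were called higher and 3 (0.0253%) lower in dE16 cells, where a call required a Benjamini-Hochberg adjusted p below 0.05 together with a log2 fold change of 0.6 or more in size.

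In WT pre-B cells the 10 genes covered a range of levels from 61.9 to 2740 TPM (a unit corrected for transcript length and library size, summed here over the transcripts of a gene). Spib, an ETS-family factor, was at 2705 and 2776 TPM in WT and at 2213 and 2552 TPM in dE16 libraries. Pou2af1, the coactivator that binds octamer factors, was at 2128 and 1732 TPM in WT and at 2150 and 2368 TPM in dE16 libraries. Pax5 followed with 805 and 835 TPM in WT and 800 and 786 TPM in dE16 libraries. These 3 genes stood apart from each other and from the rest in WT cells, where the order of Spib, Pou2af1 and Pax5 held in each library. Irf4, Bach2, Sox4 and Ebf1 came next with WT means of 553, 523, 498 and 461 TPM, and each overlapped its neighbour in that order. Irf8, at 290 TPM ± 1.16 (SD, n = 2), lay apart from Ebf1 and from Bcl11a. Bcl11a and Lef1, at 66.2 ± 24.3 and 61.9 ± 26.4 TPM (SD, n = 2), overlapped and were the lowest of the 10, yet Bcl11a still ranked above 75.9% and Lef1 above 84.5% of the genes tested when all 4 libraries were averaged. In dE16 cells Irf4 moved from the 4th to the 7th place and Lef1 from the 10th to the 9th.

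**Figure D1:**
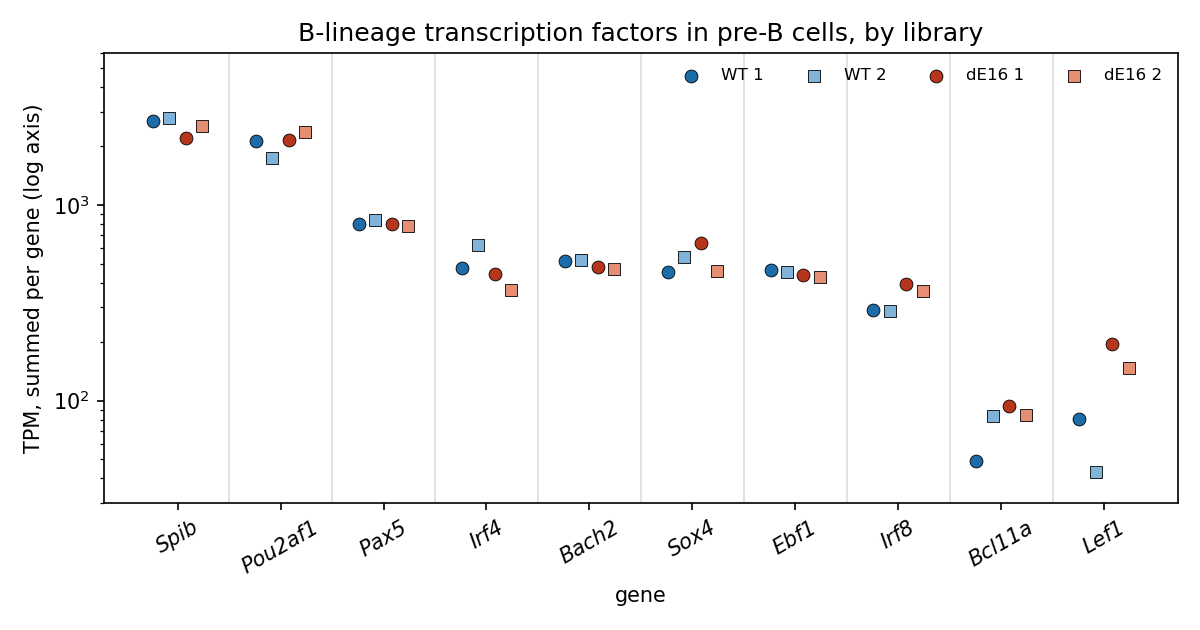
Level of the 10 genes in pre-B cells, in TPM summed per gene on a log axis, with 1 point per library and the genes ordered by their WT mean. Lef1 is the gene whose dE16 points (194 and 147 TPM) stand farthest above its WT points (80.5 and 43.2 TPM), while the points of Pax5, Bach2 and Ebf1 lie close together.

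None of the 10 genes was called different between the genotypes in either direction (limma, adjusted p from 0.294 to 0.901). In simulated data with the spread of these libraries, the call recovered 0% of 200 genes changed by a log2 of 1. At a log2 of 2 it recovered 60%, so the absence of a call does not show equal levels. The groups did not overlap for 9 of the 10 genes, 5 of them lower and 4 higher in both dE16 libraries, against 42.7% of all tested genes without overlap in either direction. An unadjusted limma p under 0.05 was reached by 2 of the 10, Lef1 and Irf8, against 11.7% of all tested genes. The median log2 fold change of the 10 was 0.04, beside 0.07 over all genes tested. For 8 of the 10 genes the 95% interval of the fold change lay within 2-fold in both directions, and for Lef1 and Bcl11a it did not. In bulk libraries such as these, a lower share of cells of one type and less RNA per cell cannot be told apart.

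**Figure D2:**
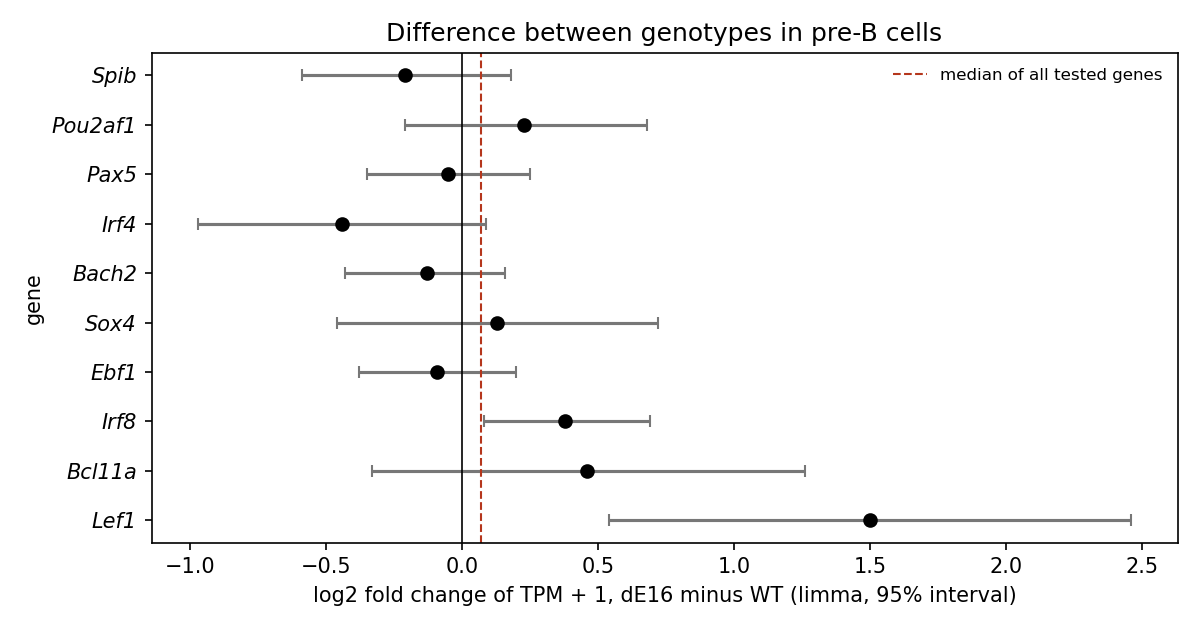
Log2 fold change of TPM + 1 between dE16 and WT pre-B cells for each gene (points) with its 95% interval from limma (bars), and the median of all tested genes (dashed line). The interval excludes 0 for Lef1 (0.54 to 2.46) and Irf8 (0.08 to 0.69), for Irf8 not under every setting, and no gene passed the adjusted threshold.

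Lef1 showed the widest difference of the 10. It encodes an HMG-box factor that carries Wnt signals and supports the survival and proliferation of pro-B cells. Its level was 80.5 and 43.2 TPM in the WT libraries and 194 and 147 TPM in the dE16 libraries, so both dE16 libraries lay above both WT libraries. The fold was 2.83 (log2 fold change 1.50, SE 0.35), with an interval from 1.45-fold to 5.52-fold and an adjusted limma p of 0.294. Almost all of it came from 1 transcript, uc008rjf.2, which held 98.5% to 99.6% of the gene's TPM in the 4 libraries. With each library left out in turn the log2 fold change ranged from 1.06 (without WT library 2) to 1.94 (without WT library 1).

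Some genes that mark pro-B and large pre-B cells were also higher in both dE16 libraries. Vpreb1 and Vpreb2, which encode surrogate light chain components of the pre-B receptor, were at 108 and 40.9 TPM and at 27.1 and 8.76 TPM in WT, against 1222 and 738 TPM and 382 and 168 TPM in dE16 libraries. Igll1, the other surrogate light chain gene, was at 112 and 34.4 TPM in WT and at 424 and 252 TPM in dE16 libraries. Dntt, the template-independent DNA polymerase of heavy chain joining, was at 48.7 and 7.18 TPM in WT and at 191 and 96 TPM in dE16 libraries. In each of these genes, in Kit, in Erg and in Lef1, the libraries stood in one order, with dE16 library 1 the highest, then dE16 library 2, WT library 1 and WT library 2. Of the 7 genes in the list of early B-cell markers, 5 were higher and 0 lower in both dE16 libraries and none was called, against 42.7% of all tested genes without overlap. The summed TPM of the list was 1103 and 699 in WT and 3001 and 1960 in dE16 libraries, none of its genes was at 0 in all libraries, and its part in the difference of Lef1 was not tested. Il7r and Cd93, from the same list, overlapped between the genotypes and did not follow that order of the libraries. The share of all tested genes in that order was not counted. T cells also express Lef1. Cd3e, Cd3g, Cd4, Cd8a and Ncr1 were at 0 in all 4 libraries. Nkg7 and Cd3d led that list of 8 T and NK cell genes, which summed to 0 and 1.25 TPM in WT and to 0.967 and 21.7 TPM in dE16 libraries.

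**Figure D3:**
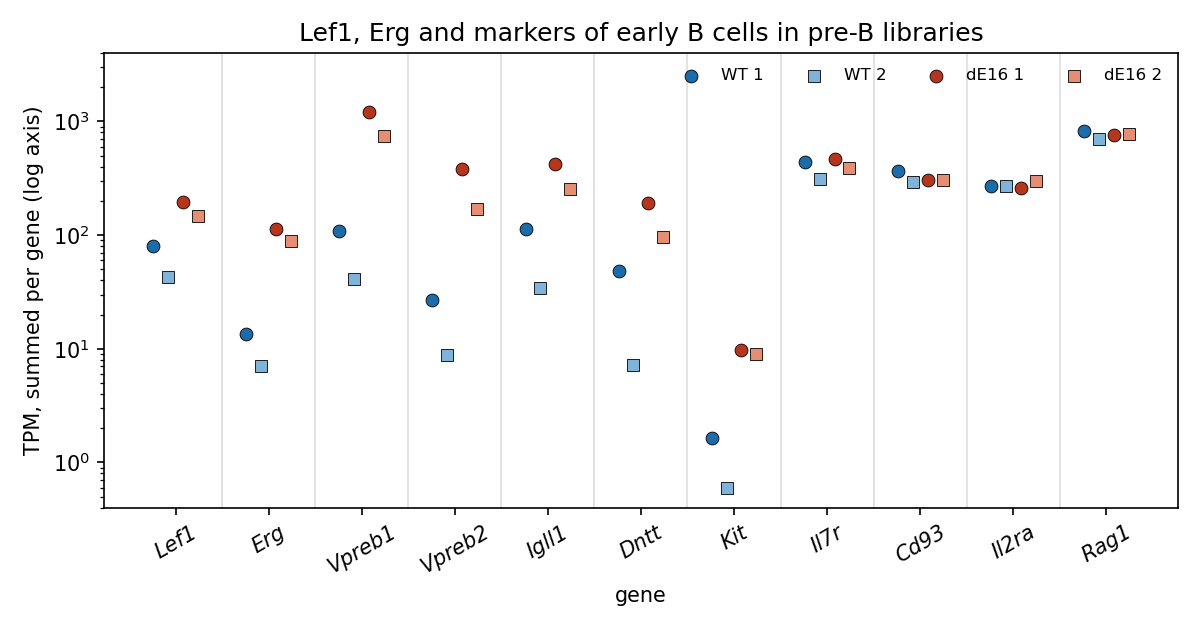
Level of Lef1, Erg and marker genes of early B cells in the 4 pre-B libraries, in TPM on a log axis, with Il2ra and Rag1 as pre-B genes for comparison. From Lef1 to Kit both dE16 libraries lie above both WT libraries, and from Il7r to Rag1 the genotypes overlap.

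Irf8 and Irf4, related interferon regulatory factors that share targets at the pre-B stage, lay on opposite sides of the WT libraries. Irf8 was at 291 and 289 TPM in WT and at 394 and 364 TPM in dE16 libraries, a 1.31-fold difference (interval 1.05 to 1.62, limma, adjusted p = 0.348) that was wider than the spread within either genotype. Irf4 was at 478 and 628 TPM in WT and at 442 and 369 TPM in dE16 libraries. Its fold was 0.737 (interval 0.511 to 1.06, limma, adjusted p = 0.505), and the gap between WT library 1 and dE16 library 1 was smaller than that between the WT libraries. Plasmacytoid dendritic cells and monocytes also express Irf8. The 6 dendritic cell genes were led by Cox6a2 and Bst2, with Klk1 at 0. They summed to 116 and 193 TPM in WT and 178 and 186 TPM in dE16 libraries. Siglech, which defines these cells, was at 0 and 0 TPM in WT against 0.781 and 5.26 TPM in dE16 libraries. Pacsin1 went the other way, at 1.5 and 1.08 TPM against 0 and 0 TPM, and Cox6a2, Bst2 and Ccr9 overlapped. The 7 monocyte genes, led by Lyz2 and Itgam with Itgax at 0, summed to 44.3 and 217 TPM in WT and to 146 and 1314 TPM in dE16 libraries. Without dE16 library 2, the highest for those monocyte genes, the log2 fold change of Irf8 was 0.44, beside 0.38 with all libraries, a value that rests on 1 dE16 library, and the part of dendritic cells and monocytes in the difference was not tested.

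Ebf1, Pax5 and Bach2, the core of the early B-cell program, showed the smallest relative differences together with Sox4. Ebf1, the factor that opens B-cell chromatin, was at 465 and 457 TPM in WT and at 439 and 427 TPM in dE16 libraries, a fold of 0.939 with an interval from 0.767 to 1.15. Pax5 gave a fold of 0.967 with an interval from 0.784 to 1.19. Bach2, a repressor of the plasma cell program that also guards the pre-B checkpoint, was at 519 and 527 TPM in WT and at 484 and 470 TPM in dE16 libraries, a fold of 0.913 with an interval from 0.745 to 1.12. All 3 genes were slightly lower in both dE16 libraries, and the lowest bound of the 3 intervals was 0.745-fold. The value of Ebf1 rests on transcript uc007inl.2, which held 97.3% to 99.3% of the gene's TPM and has no symbol in the deposited files. With the deposited symbols alone, Ebf1 would be read at 12.8 and 7.32 TPM in WT and at 7.51 and 3.17 TPM in dE16 libraries, a log2 fold change of -0.85 in place of -0.09.

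Bach2 was divided mainly between transcripts from 2 starts. The longer mRNA, uc012dbg.1 from the start at chr4:32417435, was at 367 and 303 TPM in WT and at 274 and 281 TPM in dE16 libraries. The other, uc012dbf.1 from the start at chr4:32238950, was at 143 and 216 TPM in WT and at 203 and 185 TPM in dE16 libraries. The share of uc012dbg.1 was 70.7% in WT library 1 and 56.6% to 59.8% in the other libraries, so the genotypes were not separated by it. Of 27 transcripts annotated to the 10 genes, 16 reached a mean of 1 TPM, and 0 of them were called, against 0.153% of all transcripts tested.

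A pair of transcripts on the opposite strand were singled out after their values were seen. Bach2os, antisense to Bach2, was at 12.9 and 12.3 TPM in WT and at 8.52 and 7.3 TPM in dE16 libraries (limma, adjusted p = 0.429). 5730488B01Rik, which runs opposite to the first intron of Pax5, was at 9.07 and 6.13 TPM in WT and at 21.3 and 19.2 TPM in dE16 libraries, a 2.51-fold difference (interval 1.51 to 4.15, limma, adjusted p = 0.236), beside a fold of 0.967 for Pax5 itself. Whether the libraries kept strand is not given in the sources used here, so reads of overlapping genes on opposite strands cannot be told apart.

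The other members showed differences within or close to the spread of their libraries. Spib gave a fold of 0.867 (interval 0.665 to 1.13) and Pou2af1 a fold of 1.18 (interval 0.862 to 1.6), with both dE16 libraries lower in the one and higher in the other, for Pou2af1 by as little as 2150 against 2128 TPM. Bcl11a, a zinc-finger factor that lymphoid progenitors need, was at 49 and 83.4 TPM in WT and at 93.4 and 84 TPM in dE16 libraries, where WT library 2 and dE16 library 2 nearly met. Without WT library 1 its log2 fold change was 0.09 and without WT library 2 it was 0.84, beside 0.46 with all libraries. The main Bcl11a transcript, uc007ift.3, was at 33.1 and 51.6 TPM in WT and at 70.5 and 65 TPM in dE16 libraries, and uc007ifu.2, at 11.3 and 25.2 against 13.1 and 12.7 TPM, overlapped. Sox4, an HMG-box factor needed for pro-B survival, was at 457 and 540 TPM in WT and at 643 and 458 TPM in dE16 libraries. The Sox4 groups overlapped, and the sign turned without dE16 library 1, from a log2 fold change of 0.13 to -0.12.

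Genes around these factors were read from lists of relatives, partners and targets, in which 0 genes were called in either direction. Of 21 relatives from the same families, 14 were tested, with a median log2 fold change of 0.13. Spic was at 0 in 3 libraries and at 5.67 TPM in dE16 library 1, and Tcf7 was at 5.1 TPM in WT library 1 and at 0 in the others. Sox12 was at 2.61 and 1.86 TPM in WT against 6.77 and 3.63 TPM in dE16 libraries, and Irf7, a factor of the interferon response, at 12.2 and 22.7 against 10.2 and 12.9 TPM. Of 16 partners tested, 5 were higher and 4 lower in both dE16 libraries, against the 42.7% of all tested genes without overlap, with a median of -0.12. Erg, an ETS factor of stem cells and early B cells, was at 13.4 and 7.06 TPM in WT and at 114 and 88.8 TPM in dE16 libraries. That 9.45-fold difference (interval 4.91 to 18.2) did not pass the adjusted threshold (limma, adjusted p = 0.154). Id3, an inhibitor of E proteins, was at 111 and 112 TPM in WT against 169 and 158 TPM, and Ikzf3 (Aiolos) at 355 and 371 against 481 and 584 TPM. Foxp1 was at 373 and 461 TPM in WT against 323 and 314 TPM in dE16 libraries.

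Among 13 genes that EBF1 and PAX5 are known to activate, 5 were higher and 4 lower in both dE16 libraries, again against 42.7% of all tested genes, with a median of 0.06. The surrogate light chain genes gave the highest values of that list, while Cd79a, a signalling part of the B-cell receptor, at 3648 and 4476 against 3685 and 4070 TPM, overlapped between the genotypes. Cr2, a receptor of mature B cells, was at 3.72 and 1.94 TPM against 1.38 and 1.73 TPM. Of 9 genes that PAX5 is known to repress, 6 were tested, with a median of 0.62. In both dE16 libraries 0 of them were higher and 1 lower, against 42.7% of all tested genes without overlap. Csf1r, Emb and Ccl3, which myeloid cells also express, were highest in dE16 library 2, at 11.9, 16 and 5.48 TPM, the library with the most neutrophil and monocyte RNA, and the part of those cells was not tested. Prdm1, the plasma cell factor that BACH2 represses, was at 3.5 and 7.1 TPM in WT against 4.2 and 2.91 TPM. Of 5 genes linked to IRF4 and IRF8 at the pre-B stage, 1 was higher and 1 lower in both dE16 libraries. Their median was -0.14, and the share of all tested genes without overlap was 42.7%. The one higher was Ikzf3, given above, with a log2 fold change of 0.55, the widest of the list. Cxcr4, a chemokine receptor, was at 1015 and 2579 TPM in WT and at 1400 and 963 TPM in dE16 libraries, Rag2 at 282 and 165 against 183 and 176 TPM, and Ikzf1 (Ikaros) at 630 and 584 against 519 and 580 TPM.

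In LSK cells, the authors' MACS2 calls assigned 195 peaks to the 10 genes over the 4 libraries, of 114628 peaks in all. WT libraries 1 and 2 had 37 and 111 of them, and dE16 libraries 1 and 2 had 25 and 22. As a share of all peaks of a library, these were 0.135% and 0.192% in WT and 0.189% and 0.135% in dE16 cells, so the shares of the genotypes overlapped (exact two-sided permutation p = 0.667, where 0.333 is the smallest p that 2 against 2 libraries allow). The sum of peaks itself was lower in both dE16 libraries (exact permutation p = 0.333). The authors' tag totals were 10249256 and 52050898 in WT and 22533077 and 44633938 in dE16 libraries, with 27352 and 57739 peaks against 13208 and 16329, so within each genotype the deeper library had more peaks. The part of depth in the peak numbers was not tested. Of 8 LSK marker genes, 6 and 8 had a peak in the WT libraries and 5 in each dE16 library.

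Bach2, Bcl11a and Lef1 had the most peaks of the 10 genes and were the 3 with fewer peaks in both dE16 libraries than in both WT libraries, against 35.6% of all genes with a peak. Bach2 had 10 and 33 peaks in WT and 7 and 3 in dE16 cells. Bcl11a had 10 and 23 in WT and 4 and 6 in dE16 cells, and Lef1 8 and 14 in WT and 2 and 3 in dE16 cells. None of the 10 genes had more peaks in both dE16 libraries, against 0.191% of all genes. The genotypes overlapped in the other genes, as in Irf8, which had 0 and 10 in WT against 2 and 1, and in Ebf1, where 13 of the 20 peaks came from WT library 2. Irf4 had 3 and 6 peaks in WT against 1 and 3, Sox4 2 and 6 against 2 and 2, Pax5 1 and 3 against 2 and 1, Pou2af1 0 and 2 against 2 and 0, and Spib 1 and 1 against 1 and 0. When the 13208 best-scoring peaks were taken from every library, only Lef1 kept fewer in both dE16 libraries (3 and 4 against 2 and 1). The share over all genes was then 7.16%. The summed peaks of the 10 genes were 15 and 17 in WT against 25 and 14 in dE16 cells.

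**Figure D4:**
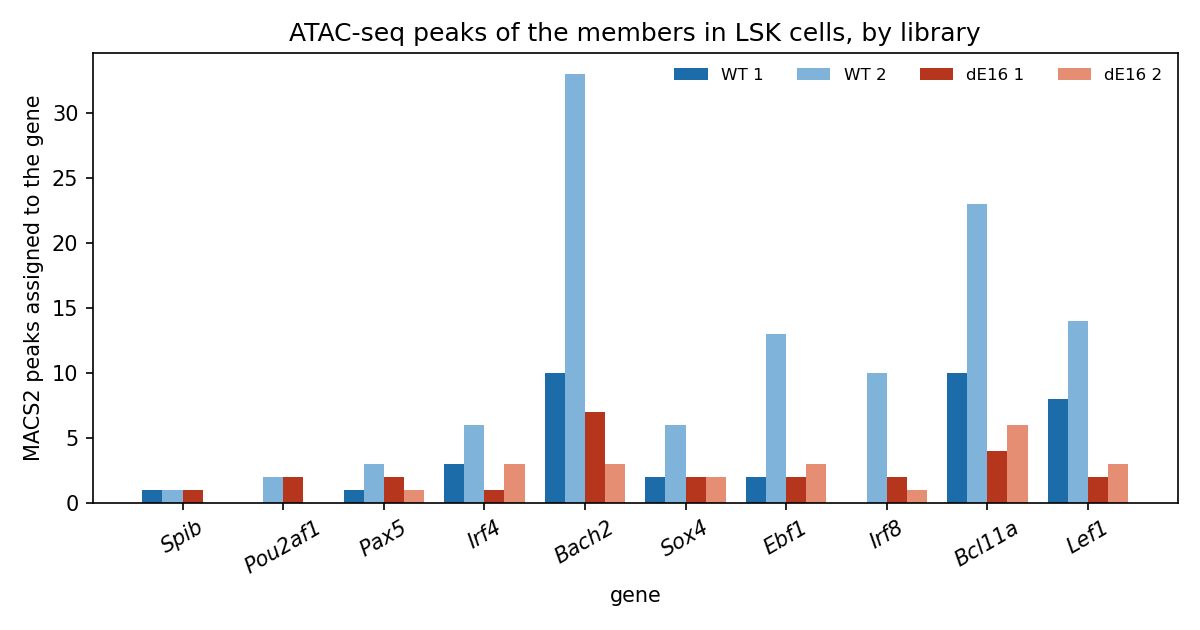
Number of MACS2 peaks that the authors' annotation assigned to each gene in LSK cells, with 1 bar per library and the genes in the order of their WT level in pre-B cells. WT library 2, with the most peaks in all, has the highest bar for Bach2 (33), Bcl11a (23) and Lef1 (14), and Spib and Pou2af1, the most abundant in pre-B cells, have 0 to 2 peaks per library.

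Peaks at promoters, from 1 kb before to 200 bp after a start site, differed among the genes. Bach2, Sox4 and Irf4 had one in all 4 libraries, Bcl11a in 3, Ebf1 and Pou2af1 in 2 and Irf8 in 1. The Bach2 promoter peaks all lay at the start of uc012dbf.1, not at that of uc012dbg.1, which had the larger share in pre-B cells. The Irf8 promoter peak lay at the start of uc009nrj.2, which held 1.24% to 2.28% of the gene's TPM there. Lef1, Pax5 and Spib had none in any library, although all 3 were transcribed in pre-B cells. Of 2857 genes at least as abundant in pre-B cells as the lowest of the 10, 53.2% had a promoter peak in all 4 LSK libraries and 11.2% in none. CpG dinucleotides were counted in the RefSeq windows of 300 bases around the start. The windows were matched by gene and not to the start with the peak, and a link to the peaks was not tested. Pax5 had 23, Lef1 5 to 21 over its windows and Spib 2, all without a peak. With a peak in each library, Bach2 had 7, Irf4 11 and Sox4 12. Bcl11a had 23 with a peak in 3 libraries, Pou2af1 8 and Ebf1 9 to 17 in 2, and Irf8 8 to 38 in 1. The median over 32851 windows was 7.

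Pax5 had its only shared region 5.72 kb into the gene, at chr4:44704329-44704721, with a peak in all 4 libraries. It lies in an exon of 5730488B01Rik, the opposite transcript described above, and from 323 to 715 bases before the start of a shorter Pax5 transcript in GENCODE M21. A Lef1 region at chr3:131112285-131112578 in intron 1, found in both WT and neither dE16 library, similarly lies from 213 to 506 bases before a second start, shared by 3 Lef1 transcripts. None of those, uc008rji.2, uc008rjj.2 and uc008rjk.2, was above 1.14 TPM in pre-B cells. Spib had its shared region in the 3'-UTR, with a peak in 3 of the 4 libraries.

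Regions with a peak in both WT libraries were followed into the dE16 libraries. Of 37 such regions assigned to the 10 genes, 16 (43.2%, Clopper-Pearson 95% interval 27.1 to 60.5) had no peak in either dE16 library, against 43.7% of 26327 regions of all genes, a share near that background. All 4 promoter regions kept a peak in at least 1 dE16 library, where 1463 of the 9755 promoter regions of all genes had none, and the 16 regions without one were among the 33 outside promoters, where 60.6% of the regions of all genes had none. Bach2 had 6 of 10 regions without a dE16 peak, Lef1 5 of 8, Bcl11a 3 of 10, Ebf1 1 of 2 and Irf4 1 of 3. The single regions of Pax5 and Spib and both regions of Sox4 kept a peak, and for Irf8 and Pou2af1 the peaks of the WT libraries did not meet. In the other direction, 1 of 25 peaks in dE16 library 1 (in Pax5) and 2 of 22 in dE16 library 2 (in Irf4 and Irf8) met no WT peak. Peaks of low score were lost most often in all genes, from 80.5% in the lowest of 5 classes of WT score to 2.81% in the highest. In the classes between, from low to high, the shares of all genes were 63%, 47.5% and 24.5%. Of the regions of the 10 genes, 9 of 10, 3 of 5, 3 of 12 and 0 of 7 had no dE16 peak in the classes below the highest. In the highest class it was 1 of 3, the Lef1 region 52.6 kb before the gene.

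**Figure D5:**
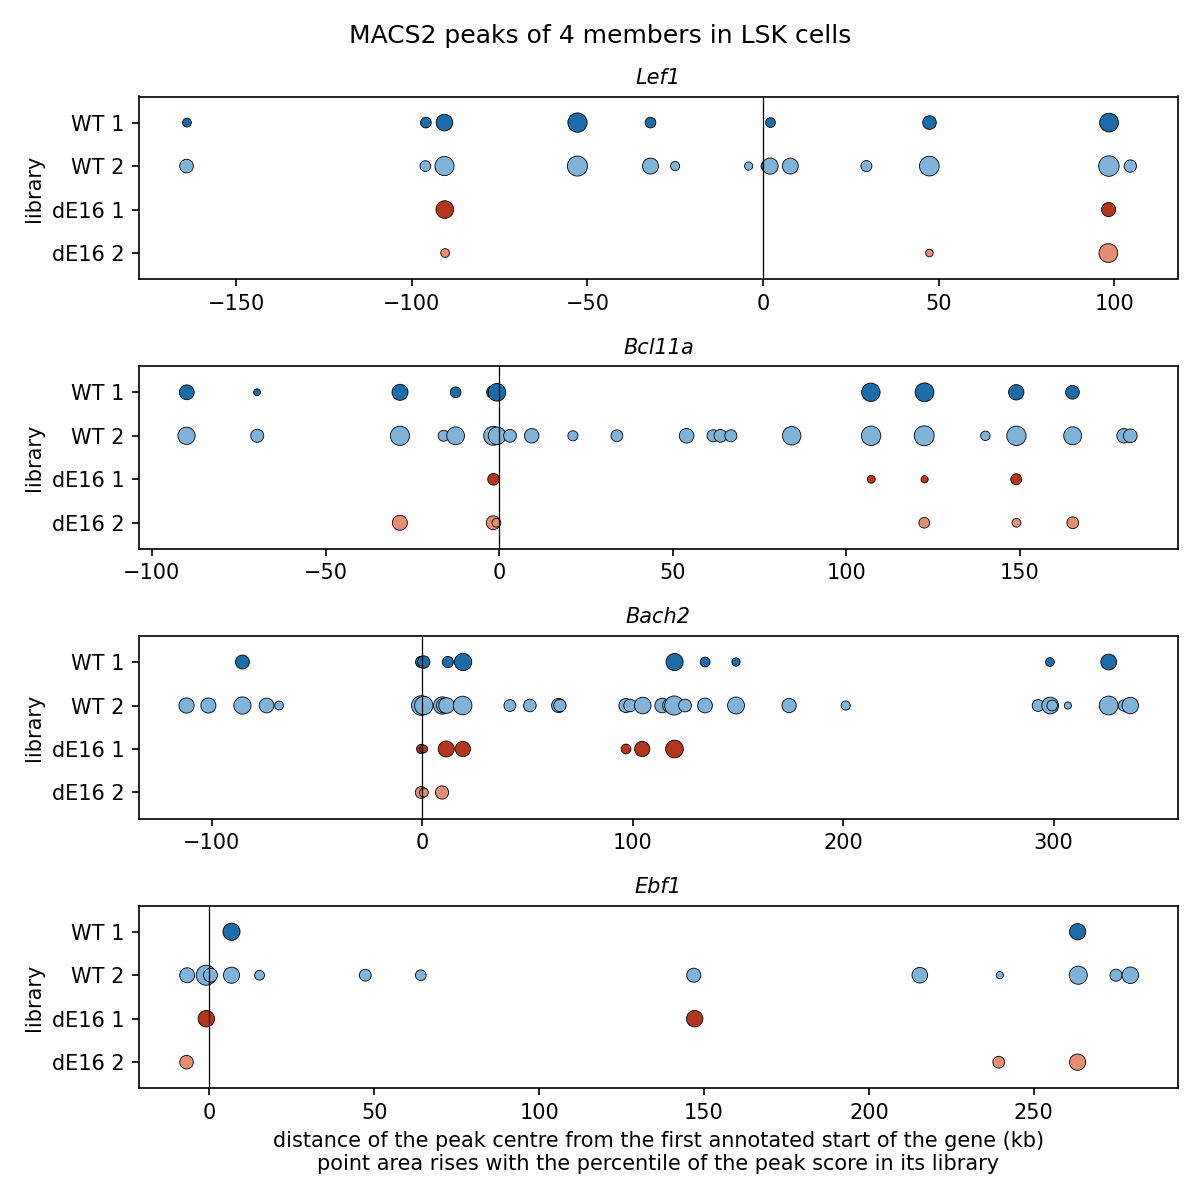
MACS2 peaks of Lef1, Bcl11a, Bach2 and Ebf1 in the 4 LSK libraries by the distance of the peak centre from the first annotated start of the gene in kb, with point area rising with the percentile of the peak's score in its library. The Lef1 peak 52.6 kb before the start is among the larger points in both WT libraries and has no point in the dE16 rows, while the peaks at the last Lef1 intron are in all 4 rows.

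The reference sequence of the regions that carry this contrast is given for regions outside promoters in Lef1, Bach2, Ebf1 and Pax5. For Lef1 and Bach2, the region of highest WT score without a dE16 peak comes first, then the one of highest WT score with a dE16 peak. The Ebf1 region is the one without a dE16 peak, and the Pax5 region is its only shared one. A peak here is a MACS2 call, so a region labelled without one can still hold tags in the dE16 libraries. The central 200 bases are given from RefSeq GRCm38.p6 on the plus strand, and capitals mark motif matches on either strand. None of the windows overlaps a GENCODE exon except that of Pax5, which lies in 5730488B01Rik.
Ebf1 6.62 kb after its assigned start (chr11:44624730-44624929, intronic, no dE16 peak): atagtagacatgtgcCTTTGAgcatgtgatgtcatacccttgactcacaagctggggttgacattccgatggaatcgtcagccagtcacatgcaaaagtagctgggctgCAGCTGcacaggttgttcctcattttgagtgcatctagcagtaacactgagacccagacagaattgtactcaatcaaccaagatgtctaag
Lef1 52.6 kb before its assigned start (chr3:131057386-131057585, intergenic, no dE16 peak): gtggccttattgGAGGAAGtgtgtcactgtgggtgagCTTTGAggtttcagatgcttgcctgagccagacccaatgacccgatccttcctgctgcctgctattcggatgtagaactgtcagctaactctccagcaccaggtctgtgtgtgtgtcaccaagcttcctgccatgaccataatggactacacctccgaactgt
Lef1 98.1 kb after its assigned start (chr3:131208727-131208926, intronic, a peak in both dE16 libraries): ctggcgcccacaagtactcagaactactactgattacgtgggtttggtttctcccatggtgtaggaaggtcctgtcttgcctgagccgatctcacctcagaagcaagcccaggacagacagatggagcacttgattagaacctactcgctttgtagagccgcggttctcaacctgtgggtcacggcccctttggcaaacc
Bach2 148 kb after its assigned start (chr4:32565046-32565245, intronic, no dE16 peak): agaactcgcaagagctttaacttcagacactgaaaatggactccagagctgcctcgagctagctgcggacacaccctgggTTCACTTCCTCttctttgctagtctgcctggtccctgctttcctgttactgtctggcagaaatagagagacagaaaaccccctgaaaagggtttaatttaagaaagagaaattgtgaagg
Bach2 120 kb after its assigned start (chr4:32358724-32358923, intronic, a peak in dE16 library 1): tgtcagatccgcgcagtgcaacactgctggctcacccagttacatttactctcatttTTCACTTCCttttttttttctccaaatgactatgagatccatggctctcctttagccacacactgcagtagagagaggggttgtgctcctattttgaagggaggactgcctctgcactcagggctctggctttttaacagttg
Pax5 5.72 kb after its assigned start (chr4:44704426-44704625, exon of the opposite transcript, a peak in both dE16 libraries): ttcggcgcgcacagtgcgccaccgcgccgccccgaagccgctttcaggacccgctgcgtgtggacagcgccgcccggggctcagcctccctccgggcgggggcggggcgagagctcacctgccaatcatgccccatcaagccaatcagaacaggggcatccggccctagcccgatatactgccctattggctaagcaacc

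The motifs were the letters CCCNNGGG for EBF, GAGGAAG for PU.1 and Spi-B, GGAANNGAA for an ETS and IRF composite, TGTGGT for RUNX, CAGCTG for an E-box and CTTTGA for LEF and TCF factors, searched on both strands with overlaps allowed. A match describes the letters and not the binding of a factor. The Ebf1 region without a dE16 peak held an E-box and a CTTTGA, and the Pax5 region held none of the 6. The Lef1 region before the gene held GAGGAAG and CTTTGA, and that of the last intron none. In Bach2, the region without a dE16 peak held GAGGAAG on the minus strand, overlapping a composite, and the other region held the composite alone. Over the 37 regions of the 10 genes, RUNX letters were in 12 (32.4%), against 19.5% of the 26327 regions of all genes and 26.4% of those outside promoters. The composite was in 4 (10.8%), against 6.81% of all regions and 8.32% of those outside promoters. In the same order, GAGGAAG was in 6 (16.2%) against 15.8% and 19.4%, and the E-box in 5 (13.5%) against 14.7% and 16.9%. CTTTGA was in 3 (8.11%) against 10.5% and 13.1%, and the EBF letters in 2 (5.41%) against 9.31% and 6.78%.

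The authors' lists of differential regions gave log2 tag counts per library for regions of 4 of the 10 genes, Bcl11a, Ebf1, Lef1 and Sox4. The lists hold regions that passed the authors' own test. In the list with WT as target, 8534 of 8540 regions were lower in both dE16 libraries. In the list with dE16 as target, 5212 of 5231 were lower as well. A lower value thus holds for almost every listed region, whichever genotype was the target, and these values are a description. Their transformation is not given in the sources used here. In the list with WT as target, the Lef1 region before the gene was at 5.98 and 5.39 in WT libraries. In dE16 libraries it was at 4.60 and 4.77 on that log2 scale, the linear ratio being 0.5. The Lef1 region of the last intron, which kept a peak in all libraries, was at 7.44 and 7.5 in WT and at 6.70 and 6.58 in dE16 libraries, a difference of -0.83. The Sox4 promoter was at 8.58 and 8.35 in WT and at 7.35 and 7.55 in dE16 libraries. The differences of the 8 regions in the list with WT as target ranged from -1.16 to -0.68, around a median of -0.927 over that list. Regions of Bcl11a, Lef1 and Sox4 in the list with dE16 as target ranged from -0.95 to -0.76, beside a median of -0.919. There, the Lef1 region before the gene had a ratio of 0.563 and that of the last intron 0.574. The lack of a MACS2 peak in dE16 cells at the former is thus not a lack of tags. Almost every listed region was lower in both dE16 libraries, so the lower tag counts of the Lef1 regions are not a result about Lef1. They cannot be set against its higher TPM in both dE16 pre-B libraries. That TPM came from different cells sorted at a different stage, and Lef1 was not called there.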

How the data were processed

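Omni-ATAC-seq of LSK cells and RNA-seq of pre-B cells were available for 2 WT and 2 dE16 libraries each, as the labels give, while the methods of the study name 3 ATAC-seq samples per genotype. The authors aligned ATAC-seq reads to GRCm38/mm10 with Bowtie2 and BWA-MEM (BWA 0.7.15 in the submitters' processing notes), removed duplicates, called peaks in each library with MACS2 and HOMER and annotated them with ChIPseeker. The deposited peak tables hold a score per peak, constant in the HOMER tables. The authors' deposited lists of differential regions hold log2 tag counts per library and the tag totals. Their fold changes and p-values were not used, and of the authors' edgeR tables only the transcript symbols were read. The deposited RNA-seq tables hold TPM, FPKM and coverage per transcript as made by the authors' StringTie run on UCSC known genes, with no read counts, so precision rests on the spread between libraries.

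The 4 tables share 63753 transcripts. The deposited files name 30124 of them, and GENCODE M21, by at least 50% of a transcript's exonic bases on the same strand, brought this to 56380, with the same symbol for 97.4% of those named by both. TPM was summed per gene, and log2(TPM + 1) of genes with a mean of at least 1 TPM was fitted by genotype with limma 3.58.1 in R 4.3.3 (eBayes with a trend, Benjamini-Hochberg adjustment across the table). Calls used the thresholds of the study, 0.05 for the adjusted p and 0.6 for the size of the log2 fold change. Fold changes are on the log2(TPM + 1) scale. The same fit was made per transcript, and the script was tested on simulated data. Overlaps of at least 1 bp between peaks, with unplaced contigs left out, were found in Python 3.11.15 with pandas 2.3.3, numpy 2.4.6 and scipy 1.17.1. Intervals of shares cover counting error only. The sequences of some regions and part of the sorting gate are not reported here.

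The 10 genes, the gene lists and the tests were chosen with earlier results of these data known. Named beside the 10 were the 4 tested genes with the largest absolute log2 fold change of each non-marker list, the 2 most abundant genes and the genes at 0 of each marker list given beside a result, and Dido1. Dntt, Kit, Cd93, Siglech, Pacsin1, Ccr9, Cd79a, Il2ra, Rag1, Ighg2b, Sdc1, Bach2os and 5730488B01Rik were chosen after their values were seen. Alternatives covered the pseudocount, filter, unit, scaling, variance model, replicate number as a block, peak caller, peak number, overlap and each library left out. The reading with deposited symbols only was added after seeing the data.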

Additional observations from a re-analysis of the deposited data

How the results depend on the processing

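The count of the 10 genes called in pre-B cells was 0 in every alternative run, which covered a pseudocount of 0.1, no filter, FPKM, centring, removal of immunoglobulin transcripts, eBayes without a trend, the main transcript of each gene, the deposited symbols only and each library left out in turn. With the replicate block it was also 0. Few genes were called at all (0.0253% in each direction), so these counts of 0 say nothing about stability. The labels number the libraries without saying that a number marks a shared animal or day, and same-numbered libraries shared little of their deviation from the genotype means (Pearson's r over genes 0.053), so the block was an alternative only. Of 130 log2 fold changes of the 10 genes under other settings, 129 kept their sign, and 1 reversed, Sox4 at -0.12 without dE16 library 1 (range with a library left out -0.12 to 0.37). Among the other genes of the network the count called was 0, and 0 to 1 with a library left out, the 1 being Spic, at 5.67 TPM in 1 library, without dE16 library 2. Over all genes, eBayes without a trend called 76 genes higher and 14 lower, the replicate block called 0, and the fit without dE16 library 2 called 230 higher and 0 lower. The number of the 10 genes with fewer peaks in both dE16 libraries was 1 with the same number of best-scoring peaks from each library (7.16% of all genes) and 3 to 8 with a library left out, the 8 without WT library 1, where 74.6% of all genes were lower. With HOMER peaks it was 3, against 19.5% of all genes, but Ebf1, Lef1 and Sox4 in place of Bach2, Lef1 and Bcl11a. With the better-scoring 50% of peaks it was 4 (Bach2, Lef1, Sox4 and Bcl11a), against 27.7% of all genes. The share of WT-shared regions without a dE16 peak was 68.8% (11 of 16) with the better-scoring 50% of peaks, against 40.5% of all regions, and 18.2% (2 of 11) with the same number of peaks, against 13.3%. With a library left out it ranged from 43.2% to 70.3%, the latter without WT library 1 and against 69.9% of all regions. The causes of these shifts were not tested.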
